A study of Mus musculus with 2 samples.

Results

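The lectin genes examined here were the C-type lectins, galectins, Siglecs and killer cell lectin-like receptors of the mouse, compared between the livers of L-Lpcat3 KO mice (KO below) and of their floxed controls on a western diet. Members were chosen by gene symbol alone, as every probe set annotated to a gene whose symbol starts with Clec, Lgals, Siglec or Klr, or to Cd209a, Cd209b, Cd22, Cd33 or Mrc1. This rule found 96 of the 45101 probe sets on the array. Of these, 91 carried a single symbol and stood for 64 of 18193 genes, and 5 carried several symbols and were not assigned to a gene. The control group was Lpcat3fl/fl, with loxP sites on both sides of a part of Lpcat3 and no Cre, and the other was Lpcat3fl/fl Albumin-Cre, in which an albumin-driven Cre deletes that part in hepatocytes while other liver cells keep it. Controls carried no Cre transgene, so Cre and the deletion cannot be told apart. All mice were male, 16 weeks old, had eaten a western diet for 9 weeks from 7 weeks of age, and were fasted for 6 hr before the liver was taken. RNA from 5 livers per genotype was pooled and each pool was read on 1 Affymetrix whole-genome array of the mouse.

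With 1 pool per genotype there is no replicate check, and no p-value between genotypes is given below. Signals are the deposited MAS5 intensities, linear and scaled to the same trimmed mean of 500 on both arrays. A floor of 86.6, the median signal, replaced every lower value, and a gene counted as measured where its brightest probe set by mean log2 signal reached the floor on at least 1 array. A value that lies below the floor on 1 side makes the ratio a lower bound, written as "at least". Probe sets that share a gene gave log2 ratios that differed with a pooled SD of 0.21 where the mean signal was at least 4 times the floor and of 0.38 below that. This SD stands in for measurement error and holds no spread between mice. Lpcat3 itself went from 5173 in control to 2198 in KO liver on its single measured probe set, which was not placed relative to the deleted part. The tissue label was borne out by the hepatocyte gene Alb, at 32117 and 33219.

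C-type lectins carry a domain that in many of them binds sugars through calcium. On macrophages, dendritic cells and sinusoidal endothelium they capture glycoproteins, microbes and dying cells, and several of them signal through the kinase Syk, either directly or through the adaptors Fcer1g and Tyrobp. Galectins are soluble lectins for beta-galactosides that are made in the cytosol and secreted without a signal peptide. Siglecs bind sialic acids and mostly carry inhibitory motifs, while the killer cell lectin-like receptors let NK cells read MHC class I and stress ligands. In liver, Clec4f marks Kupffer cells, and Clec4g and Mrc1 are known from the sinusoidal endothelium. Because whole liver was measured, more cells of a type and more RNA per cell cannot be told apart.

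With the floor applied, the largest differences were higher signals of Lgals3 and of the myeloid receptor gene Clec7a in the KO pool, and lower signals of Clec2d and Clec2h, which belong to the Clec2 family of ligands for NKR-P1 receptors. Of the 64 genes, 33 were measured. Among these, 7 were at least 2-fold higher, namely Lgals3, Clec7a, Clec4a2, Clec4a3, Clec1b, Cd22 and Klrd1, against 2.70% of the 12290 measured genes on the array. Another 2 were at least 2-fold lower, Clec2h and Clec2d, against 0.700% of all measured genes. These 7 and 2 genes made up 21.2% and 6.06% of the measured lectin genes. On the log2 scale, as KO over control, their median ratio was 0.46, beside 0.01 over all measured genes, and 25 of the 33 lay above 0, a share of 75.8%, beside 51.2% of all measured genes. A gene can pass the floor through its higher array alone. Over the 25 lectin genes at or above the floor on both arrays the median was 0.61, beside -0.003 over 10973 genes. Over all 64 lectin genes with values as deposited it was 0.47, beside 0.04. Genes are not replicates, so these medians describe the list and test nothing.

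**Figure D1:**
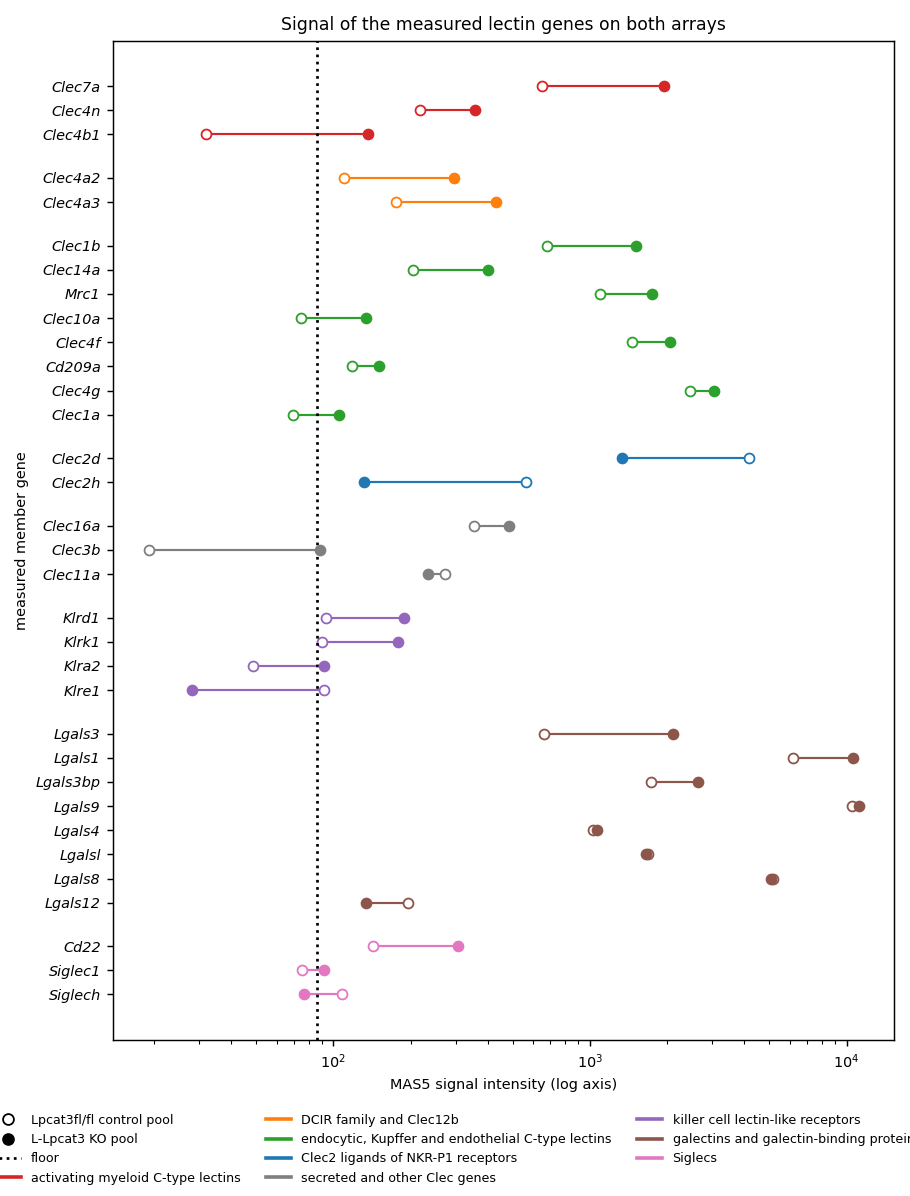
Signal of each of the 33 measured lectin genes on the control array (open circles) and the KO array (filled circles), on a log axis, coloured by role, with the floor of 86.6 as a dotted line. Filled circles lie to the right for the myeloid lectins and for Lgals3, and to the left for Clec2d and Clec2h.

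The promoters of the 2 lower genes and of the 2 genes of highest ratio, Clec7a and Lgals3, are shown because they carry the extremes of the comparison. Each is the RefSeq sequence of the 250 bases before the start of transcription on build GRCm38.p6, read 5′ to 3′ on the strand of the gene. Capitals mark matches, on either strand, to the ETS core AGGAAG, the AP-1 motif TGANTCA or the IRF motif, spelled GAAA, any 2 bases and GAAA again. No 2 matches overlapped. The Clec2d window is chr6:129180365-129180614 on the plus strand and the Clec2h window is chr6:128662135-128662384 on the plus strand. The Clec7a window, the first of 2 starts listed, is chr6:129472780-129473029 on the minus strand, and the Lgals3 window is chr14:47373610-47373859 on the plus strand.
Clec2d: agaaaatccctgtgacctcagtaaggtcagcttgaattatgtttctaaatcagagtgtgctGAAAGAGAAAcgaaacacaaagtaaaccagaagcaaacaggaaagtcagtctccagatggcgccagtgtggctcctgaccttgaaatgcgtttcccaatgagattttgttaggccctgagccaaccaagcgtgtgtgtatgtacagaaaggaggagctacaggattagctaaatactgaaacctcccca
Clec2h: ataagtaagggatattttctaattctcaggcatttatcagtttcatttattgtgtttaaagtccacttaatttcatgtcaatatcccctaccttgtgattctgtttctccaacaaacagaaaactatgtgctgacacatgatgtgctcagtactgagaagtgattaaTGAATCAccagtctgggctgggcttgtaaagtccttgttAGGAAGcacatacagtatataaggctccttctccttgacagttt
Clec7a: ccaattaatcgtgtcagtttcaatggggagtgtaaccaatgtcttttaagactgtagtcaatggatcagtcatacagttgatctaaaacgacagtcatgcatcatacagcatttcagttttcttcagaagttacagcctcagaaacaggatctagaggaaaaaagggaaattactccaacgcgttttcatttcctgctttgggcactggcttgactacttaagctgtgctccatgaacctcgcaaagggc
Lgals3: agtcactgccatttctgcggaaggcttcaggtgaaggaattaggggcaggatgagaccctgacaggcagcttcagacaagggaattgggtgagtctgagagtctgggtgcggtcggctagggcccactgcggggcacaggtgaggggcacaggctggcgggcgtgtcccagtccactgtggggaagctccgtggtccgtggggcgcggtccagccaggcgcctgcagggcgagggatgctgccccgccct

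Clec2d held 1 match to the IRF motif, and Clec2h held 1 to the AP-1 motif and 1 to the ETS core. The windows of Clec7a and Lgals3 held none of these letters. Of the 54 lectin genes with a promoter in the table, 26 (48.1%) held the ETS core, beside 29.5% of all 32851 promoters. The AP-1 motif stood in 4 of the 54 (7.41%), beside 6.75%, and the IRF motif in 3 (5.56%), beside 2.98%. Genes with several starts in the table have several chances to hold a motif, while the share over all promoters counts each start once. Of the 8 genes past 2-fold that have a promoter in the table, 2 held the ETS core, 1 the AP-1 motif and 1 the IRF motif. A match is a description of the letters and not a bound site.

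Among the activating lectins of myeloid cells, Clec7a stood out. Clec7a encodes dectin-1, the receptor for fungal beta-glucan, and its signal went from 650 in control to 1949 in KO liver, a log2 ratio of 1.58 on a single probe set. Clec4n encodes dectin-2, a receptor for mannans that pairs with Fcer1g. Its signal was 217 in control and 356 in KO liver, a log2 ratio of 0.72 that did not reach 2-fold, while its other probe set went from 56.2 to 187, a ratio of at least 1.11. Clec4b1, another partner of Fcer1g, was at 31.9 and 136, at least 1.57-fold higher. The glycolipid receptor genes Clec4d and Clec4e and the DAP12 partner gene Clec5a stayed below the floor on both arrays, with Clec4e at 35.3 and 82.5 on the probe set of its highest mean signal. All 3 measured genes of this group lay above 0.

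The DCIR lectins showed the same direction. Clec4a2, which encodes the inhibitory receptor DCIR, went from 110 to 294, a log2 ratio of 1.42. Its relative Clec4a3 went from 175 to 429, a log2 ratio of 1.29. Both passed 2-fold, although their control signals lay within 4 times the floor, where the spread between probe sets is larger. A probe set annotated to both Clec4b1 and Clec4a2, counted for neither, went from 89.2 to 260. Clec12b, an inhibitory receptor, was below the floor on both arrays. Of the 9 myeloid lectins in both groups together, 5 were measured, all 5 lay above 0, and 3 were at least 2-fold higher. Marker genes of Kupffer cells and other macrophages were mostly higher as well. All 14 of that list were measured, 7 were at least 2-fold higher, their median was 1.03, and their summed signal went from 15536 to 33963. Of all measured genes on the array, 2.70% were at least 2-fold higher. In that list 13 genes lay above 0, with Mertk at a log2 ratio of 0.29. Cd163 was lower, at 357 in control and 313 in KO liver, a log2 ratio of -0.19. Summed signals of marker lists, here and below, are over every list gene on the array as deposited, those below the floor included. Of the 14, 5 are genes that the study displayed from these arrays or measured by PCR, and of the other 9 genes 2 were at least 2-fold higher, with a median of 0.79. No defining marker of that list was below the floor, Adgre1 being at 509 and 946 and Csf1r at 3548 and 6138. Markers of monocytes and lipid-associated macrophages were at least 2-fold higher in 6 of 10 measured genes, but 5 of the 10 ratios are bounds. Mmp12, Itgax and F13a1, all among the 6, were below the floor in control and were measured through the KO array alone. The summed signal was 5565 in control and 9352 in KO liver, with Fabp5 alone at 4509 and 6202. Itgam was below the floor on both arrays. The part of macrophages and monocytes in the lectin values was not tested.

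**Figure D2:**
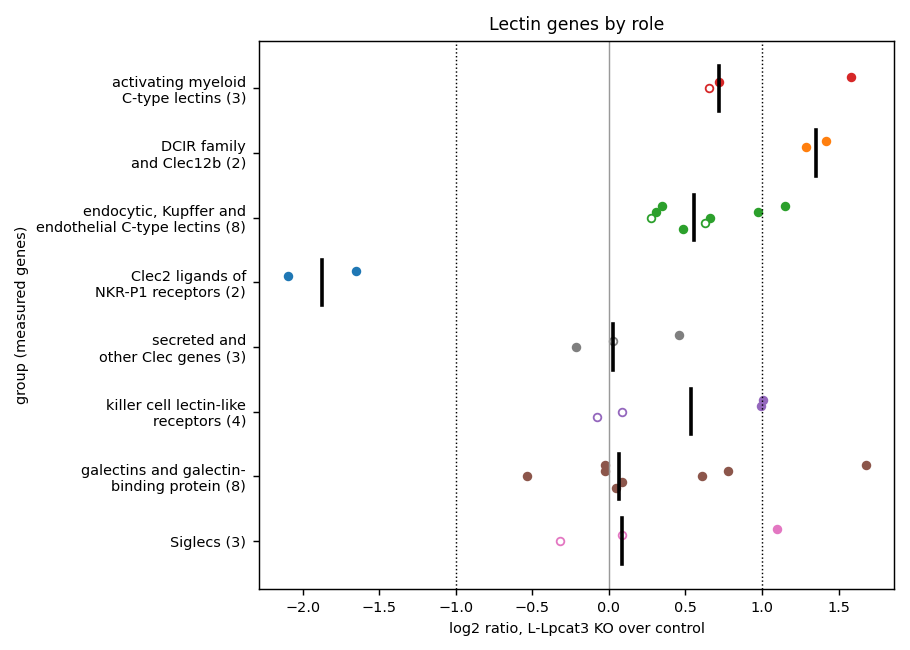
Each measured lectin gene by role, with its log2 ratio (KO over control) on the x axis, with the number measured in brackets; open points mark ratios that are bounds, black bars are medians and dotted lines mark 2-fold. The 2 Clec2 genes lie at -2.10 and -1.65, left of every other group, and the 2 DCIR genes lie at 1.29 and 1.42.

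The 8 measured endocytic lectins of Kupffer cells and endothelium lay above 0 on their brightest probe sets and spread unevenly. Clec1b, which encodes the podoplanin receptor CLEC-2 of platelets and Kupffer cells, went from 681 to 1515, a log2 ratio of 1.15. Clec14a, an endothelial lectin gene, was at 204 and 402, a log2 ratio of 0.98 that fell just short of 2-fold, and its other probe set lay below the floor on both arrays at 56.7 and 54.7. The mannose receptor gene Mrc1 was at 1097 and 1738, a log2 ratio of 0.66. The Kupffer cell gene Clec4f was at 1462 and 2048, a log2 ratio of 0.49. Clec4g, the sinusoidal endothelial lectin LSECtin, was at 2458 and 3044, a log2 ratio of 0.31.

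The remaining endocytic lectins lay near the floor. Clec10a, a macrophage receptor for galactose-type sugars, was at 74.5 and 134, at least 1.55-fold higher. Cd209a, a mouse relative of DC-SIGN, was at 119 and 151, a log2 ratio of 0.35. Clec1a was at 69.3 and 105, and its 2 probe sets gave opposite signs. Their log2 ratios of 0.28 and -0.05 are both bounds. With no floor the first was 0.60, while the second probe set was lower in KO liver, at 89.6 in control and 73.6 in KO. Cd209b was below the floor on both arrays. In all, 8 of 9 genes of the group were measured and Clec1b alone passed 2-fold, with 2 of the ratios bounds and a group median of 0.56. Liver sinusoidal endothelial markers had a median of 0.47, with 2 of 10 genes at least 2-fold higher (Lyve1 and Pecam1) and a summed signal of 6671 in control and 8935 in KO liver. Their ratios ran from -0.04 for Stab2 to 1.41 for Lyve1. Platelet markers had a median of 0.42 over 3 measured genes and a summed signal of 703 and 938, and their marker Gp9 was below the floor on both arrays. The part of endothelium or platelets in the lectin values was not tested.

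**Figure D3:**
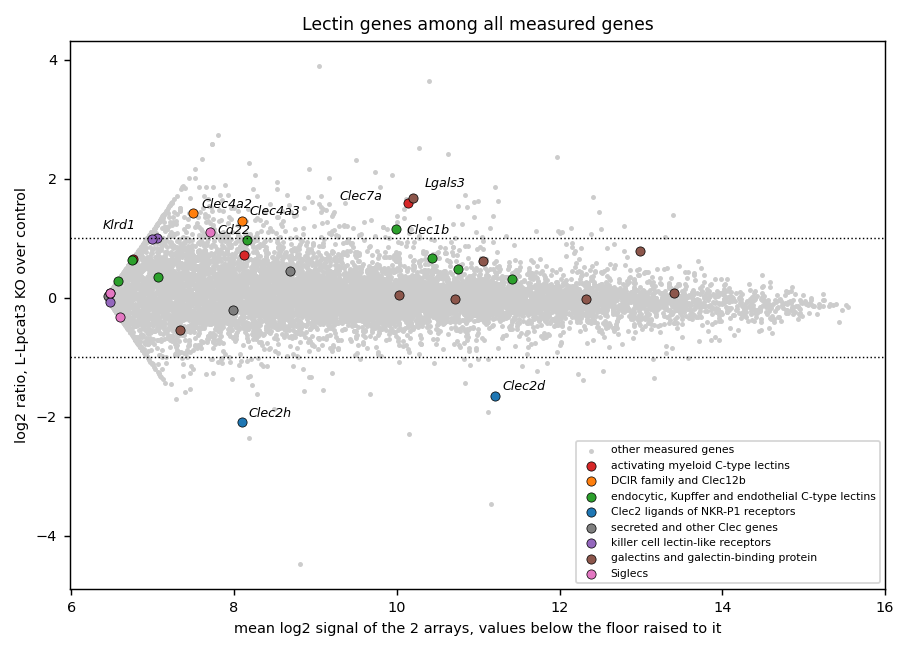
The log2 ratio (KO over control) plotted against the mean log2 signal for all 12290 measured genes (grey) and the 33 measured lectin genes (coloured by role), with dotted lines at 2-fold. Names mark the 9 lectin genes past 2-fold, of which Lgals3, Clec7a, Clec1b and Clec2d lie well above the floor and Klrd1 lies next to it.

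Both measured Clec2 genes were lower. Clec2d encodes Clr-b, a ligand through which many cells engage the inhibitory NKR-P1B receptor on NK cells, and its signal was 4180 in control and 1332 in KO liver, 31.9% of control and a log2 ratio of -1.65 on its single probe set. Clec2h, a close relative, had 3 measured probe sets. They went from 566 to 132, from 557 to 124 and from 341 to 94.6, with log2 ratios of -2.10, -2.17 and -1.85, so all of them were more than 2-fold lower and differed among themselves by less than that between probe sets of one gene at this signal. On the KO array all 3 came close to the floor of 86.6. The other 5 genes of the family on the array, Clec2e, Clec2g, Clec2i, Clec2l and Clec2m, were below the floor on both arrays. The median of the family was -1.87 over its 2 measured genes and 0.42 over all 7 with values as deposited. The 5 genes below the floor were too low to show a difference. The lower signal is therefore known for Clec2d and Clec2h alone, and the data do not say whether it extends to the family. Also below the floor were the receptor genes Klrb1a, Klrb1b and Klrb1f, with Klrb1b at 31.2 and 50.1. Hepatocyte markers, beside them, ran from -0.43 to 0.37 with a median of -0.15, and their summed signal was 265586 in control and 244014 in KO liver. None of these 9 markers differed by 2-fold. Their signals, lowest for Tat at 11579 in control and 8565 in KO liver, lay above those of Clec2d and Clec2h. The part of hepatocytes in the values of Clec2d and Clec2h was not tested.

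Lectin genes that stand near one another were compared as well. In the RefSeq order of protein-coding genes, 25 of the lectin genes stood in a single run, counted as one where no more than 10 other genes lay between neighbours. Of these 25, 9 were measured, 3 were at least 2-fold higher (Clec1b, Clec7a and Klrd1) and 2 at least 2-fold lower (Clec2h and Clec2d), so genes of both directions stood in that run. Counting lectin genes only, Klrb1b, Clec2i, Clec2g, Klrb1f and Clec2e stood between Clec2h and Clec2d, all of them below the floor on both arrays. Beyond Clec2d came the lectin genes Clec2m, Clec12b and then Clec1b. Other protein-coding genes lay between some of these lectin genes and were not examined. A second run held Clec4a3, Clec4b1, Clec4a2, Clec4n, Clec4d and Clec4e. Of its 6 genes 4 were measured, all 4 lay above 0, and Clec4a3 and Clec4a2 passed 2-fold. A run of Siglecf, Siglecg, Cd33 and Siglece held no measured gene.

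Galectins divided into 3 genes that were higher and 5 near 0 or below. Lgals3, a galectin abundant in macrophages, went from 660 to 2110, a log2 ratio of 1.68 on a single probe set. This was the highest ratio of a lectin gene with the floor applied. Among the same measured genes with no floor on values, Clec3b (2.21) and Clec4b1 (2.09) were above it. Genes below the floor on both arrays were not part of this ranking. Lgals1, a galectin of mesenchymal and immune cells, was at 6202 and 10629 on one probe set and at 3367 and 6479 on the other, with log2 ratios of 0.78 and 0.94. Lgals3bp, which encodes a secreted glycoprotein that binds galectin-3, was at 1724 and 2631, a log2 ratio of 0.61. These differences exceeded the spread between probe sets of one gene, and only that of Lgals3 exceeded 2-fold. The tandem-repeat galectin genes Lgals9, Lgals8 and Lgals4 differed by less than that spread. Lgals9 was at 10543 and 11176, Lgals8 at 5172 and 5083 with a log2 ratio of -0.15 on its other probe set, and Lgals4 at 1027 and 1061. Lgalsl, a galectin-related gene, was at 1688 and 1660. The adipocyte galectin gene Lgals12 was at 195 and 134, a log2 ratio of -0.54. Lgals2 and Lgals7 were below the floor on both arrays. The group median was 0.07. Stellate cell markers, from cells that also express Lgals1, had a median of 0.57, with 3 of 8 genes at least 2-fold higher and a summed signal of 11386 and 17719, and their part in the value of Lgals1 was not tested.

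**Figure D4:**
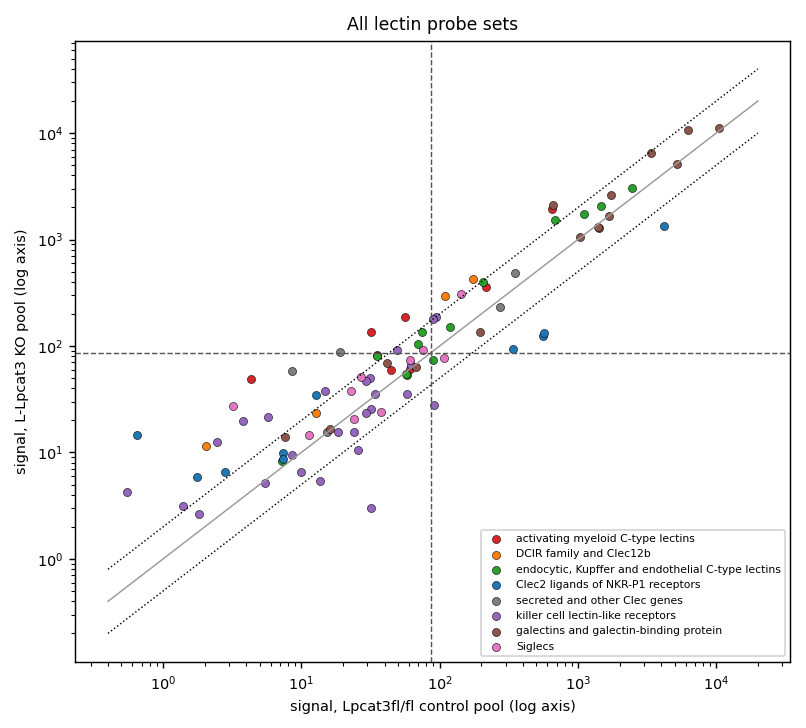
Signal of all 91 lectin probe sets of a single symbol, control on the x axis and KO on the y axis, both log axes, coloured by role; the solid line marks equality, dotted lines 2-fold and dashed lines the floor of 86.6 on each array. Of the 91, 40 reach the floor on at least 1 array; the 4 points beneath the lower dotted line that reach the floor on both arrays are Clec2d and the 3 probe sets of Clec2h.

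Few Siglecs could be measured. Cd22, an inhibitory receptor of B cells, went from 143 to 306, a log2 ratio of 1.10, and its other probe set was below the floor on both arrays at 27.0 and 51.2. Siglec1, the sialoadhesin of macrophages, was at 75.8 and 91.7, at least 1.06-fold higher, on the only one of its 3 probe sets that reached the floor. Siglech, a marker of plasmacytoid dendritic cells, was at 108 and 76.9, at least 1.25-fold lower. Cd33, Siglece, Siglecf and Siglecg were below the floor. B cell markers were at least 2-fold higher in 5 of 5 measured genes and their summed signal went from 980 to 4672, with Pax5 and Cr2 below the floor on both arrays. Of these 5 genes 2, Ighm and Jchain, were displayed by the study. The other 3, Ms4a1, Cd79b and Cd79a, were below the floor in control, so they were measured through the KO array alone and their ratios are bounds. Dendritic cell markers had a median of 0.76 over 6 measured genes, with a summed signal of 7323 and 9350 and with Flt3 and Xcr1 below the floor. Of the 6 genes 5 lay above 0, while Bst2, which held most of the control sum, was lower, at 4662 and 3377. The part of B cells in the value of Cd22 was not tested.

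The killer cell lectin-like receptors were mostly below the floor. Of 18 genes, 4 were measured. Klrd1, which encodes the CD94 chain of the receptors for the nonclassical MHC molecule Qa-1, went from 93.5 to 188, a log2 ratio of 1.01. Klrk1, which encodes the activating receptor NKG2D, went from 90.2 to 179, a log2 ratio of 0.99. The control signals of both lay just above the floor, so the 2-fold line separates values that differ by far less than the spread between probe sets. Klra2 was at 48.8 and 91.8, at least 1.06-fold higher, and Klre1 was at 91.5 and 28.0, at least 1.06-fold lower. Klrc1, Klrc2 and Klrc3, whose products pair with CD94, were below the floor, as were Klrg1 and the other Klra genes with a probe set of their own. A probe set shared by Klra9 and Klra3, counted for neither, was at 75.7 and 125, a log2 ratio of at least 0.53. Of 14 T cell and NK cell markers 5 were measured, and 4 of these ratios are bounds, from at least 1.32-fold higher for Gzmb to at least 1.52-fold for Nkg7, so they do not show whether 2-fold was reached. Cd3e was at 19.3 and 115 and Gzmb at 8.60 and 114. Their summed signal was 642 and 1129, and the NK cell genes Ncr1, Eomes and Tbx21 were below the floor on both arrays. The part of NK or T cells in these values was not tested.

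The last group held genes named Clec that are no cell surface lectins of leukocytes. Clec16a, a regulator of mitophagy, was at 353 and 485, a log2 ratio of 0.46, and Clec11a, which encodes a secreted growth factor, was at 272 and 235, a log2 ratio of -0.21. Clec3b, the gene of the plasma protein tetranectin, was at 19.1 and 88.4 and therefore at least 1.02-fold higher, and Clec18a was below the floor on both arrays. Clec16a and Clec11a did not reach 2-fold. Clec3b did so with a lower floor (a log2 ratio of 1.79), no floor (2.21) or the pseudocount (1.002). Over all groups 31 lectin genes were below the floor, with signals between 0.55 and 67.8 in control and between 2.66 and 82.5 in KO liver, and at this signal a difference was not detectable.

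Some signalling partners of the lectins were higher. Of 15 partner genes on the array 14 were measured, and 4 (28.6%) were at least 2-fold higher, beside 2.70% of all measured genes. None was 2-fold lower and the median was 0.70. The adaptor gene Fcer1g went from 636 to 1646 and Tyrobp, which encodes DAP12, from 848 to 2136. Hcst, which encodes the NKG2D adaptor DAP10, went from 53.9 to 174, at least 2.01-fold higher. Inpp5d, which encodes the inhibitory phosphatase SHIP1, was at 159 and 326, a log2 ratio of 1.03, but of 0.19 when all its measured probe sets were averaged. Hcst and Inpp5d fell short of 2-fold after median centring, quantile normalization or loess, Hcst at 0.95 to 0.97 and Inpp5d at 0.92 to 0.99, while Fcer1g and Tyrobp stayed past it. Without Fcer1g, a gene the study displayed from these arrays, 3 of 13 were at least 2-fold higher. Syk was at 196 and 374, a log2 ratio of 0.93, whereas the downstream genes Bcl10 and Malt1 were at 0.17 and -0.08, Vav1 at 0.31, and the phosphatase genes Ptpn6 and Ptpn11 at 0.03 and 0.23.

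Ligands and counter-receptors formed another list, and a lectin partner is not named below for every gene of it. Of 13 on the array 10 were measured, and 5 (50%) of these were at least 2-fold higher, beside 2.70% of all measured genes. The median was 0.87. Cd52, a sialylated ligand of Siglecs, went from 465 to 1682, Cd44 from 379 to 1137 and Ptprc, the leukocyte CD45 gene, from 682 to 1730. The Siglec ligand gene Cd24a was at 194 and 412, a log2 ratio of 1.09 that was 0.97 after median centring and 0.94 as the mean of its probe sets, and Cd5l, which is also a macrophage marker here, at 3000 and 6752. Pdpn, the podoplanin that Clec1b's product binds, was at 97.0 and 153, a log2 ratio of 0.66. Cdh1, the E-cadherin bound by the product of Klrg1, was at 1213 and 632, a log2 ratio of -0.94, while Klrg1 itself was below the floor. The self signal gene Cd47 was at 4223 and 6021.

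Lectins outside the naming rule and the enzymes that build lectin ligands had medians closer to 0 than the lectin genes. Of 20 measured genes with a C-type lectin domain but another name, 2 (10%) were at least 2-fold higher, beside 2.70% of all measured genes. None was 2-fold lower, beside 0.700% of all measured genes, and the median was 0.10. The higher genes were the B cell gene Cd72, at 131 and 321, and the langerin gene Cd207, at 164 and 329. Cd207 had a log2 ratio of 1.003 and fell short of 2-fold after median centring, quantile normalization, loess or with the pseudocount, where it ran from 0.82 to 0.96. Liver lectin genes, chosen after their values were seen, differed by less than 2-fold on either side of 0. Asgr1, a subunit of the asialoglycoprotein receptor, was at 12500 and 10500, its partner Asgr2 at 2343 and 1642, and the mannose-binding lectin genes Mbl1 and Mbl2 at log2 ratios of -0.17 and -0.17. The collectin genes Colec11 and Colec10 were at 0.26 and 0.05. Cd302 was at 17953 and 16038. Of 22 measured genes of sialic acid and N-glycan synthesis none reached 2-fold in either direction, and 2 of these ratios are bounds. They ran from -0.38 for Gne, the first enzyme of sialic acid synthesis, to 0.90 for the polysialyltransferase gene St8sia4, with Man2a1 at -0.12 and a median of 0.10.

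**Figure D5:**
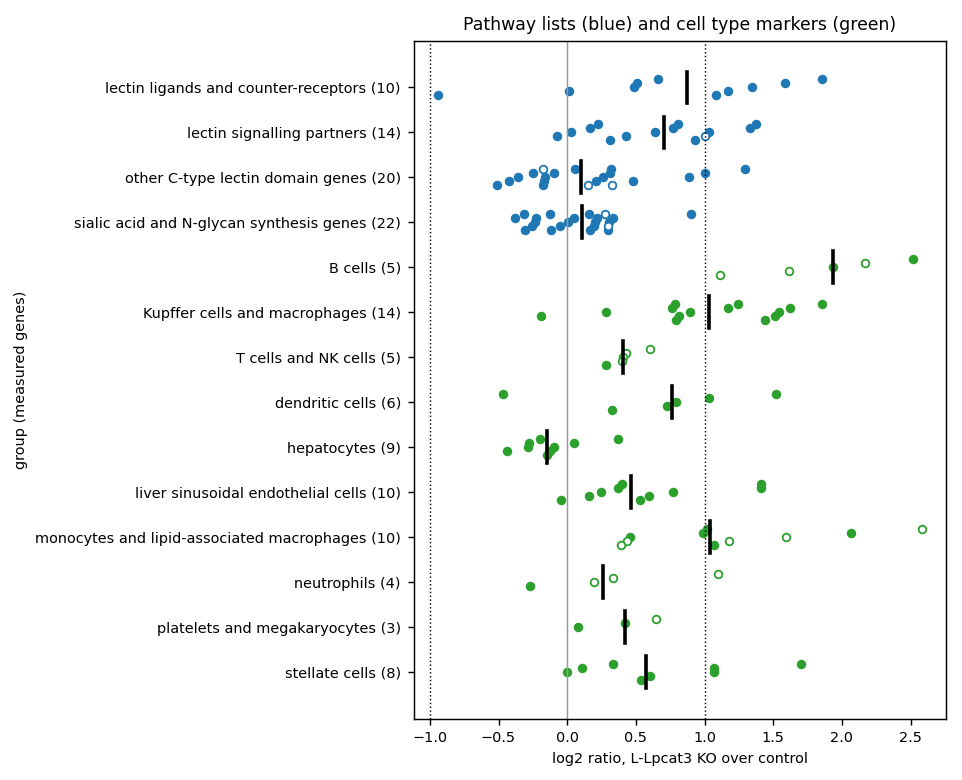
Measured genes of 4 pathway lists (blue) and of the cell type marker lists (green) by their log2 ratio (KO over control), with the number measured in brackets; open points mark ratios that are bounds, black bars are medians and dotted lines mark 2-fold. Medians run from -0.15 for hepatocyte markers to 1.94 for B cell markers, and the list of sialic acid and N-glycan synthesis genes is centred at 0.10.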

How the data were processed

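Liver RNA of 2 pools, 1 per genotype, was measured on Affymetrix arrays. The deposited values are linear signal intensity that the authors obtained with MAS5 (the submitters' processing notes give no version) and then examined in GenespringGX, per the methods. The scaling in MAS5 takes most transcripts as unchanged. Detection calls were not used here. The lower quartile, median and upper quartile were 23.2, 83.1 and 400 on the control array and 28.0, 90.0 and 410 on the KO array.

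Names came from the platform annotation, brought up to date by identifier with RefSeq genes of GRCm38.p6, where all 64 lectin genes matched. For the authors' build, the sources used here give no name. Of 45101 probe sets 9211 had no symbol. That assembly served for names, neighbour order and promoters only. A floor at the median of all values was applied, the log2 ratio was taken on the brightest probe set by mean log2 signal, and 2-fold was the threshold. Groups were taken from the genotype labels. No test was made, since each genotype has 1 array, whose number limits the precision. The members, gene lists and motifs were chosen with earlier results of these data known. Listed genes that are not mentioned among those on the array were not analysed here. The group called DCIR family and Clec12b was listed as inhibitory myeloid lectins, and Clec4a3 was placed there by family.

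Genes named were those past 2-fold, in each role group the gene of highest mean signal and up to 4 of largest ratio, genes whose probe sets differed in sign, and in each pathway list the genes past 2-fold and that of highest signal. Other genes named, among them the remaining lectin genes, Syk, Pdpn, Cdh1, the hepatocyte lectins and the single markers, were chosen after their values were seen. Protein motifs planned for the lectins were not analysed here. The counting step was tested on simulated data. Alternatives were median centring, quantile normalization, loess, other floors, no floor, a pseudocount of 50, the mean of probe sets, probe sets without the suffixes _x_at and _s_at, genes at the floor on both arrays, and thresholds of 1.5-fold and 3-fold. Counting every gene with values as deposited was added after the data were seen. Python 3.11.15, numpy 2.4.6, pandas 2.3.3, statsmodels 0.14.6 and matplotlib 3.10.9 were used.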

Additional observations from a re-analysis of the deposited data

How the results depend on the processing

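The count of lectin genes at least 2-fold higher, 7, was 5 after median centring, 6 after quantile normalization or loess, 8 without probe sets that can match several transcripts and 9 with no floor on values. It was 11 with a floor at the 25th percentile, 3 with a floor at the 75th percentile, 15 at a threshold of 1.5-fold and 1 at 3-fold, where Lgals3 alone remained and Clec7a, at 2.998-fold, fell just short. Of all measured genes, 7.02% were at least 2-fold higher with the floor at the 25th percentile, 1.18% at the 75th and 5.32% with none. The shares past the other thresholds were 9.07% at 1.5-fold and 0.448% at 3-fold. The 2-fold share was 1.91% after median centring, 2.30% after quantile normalization, 2.36% after loess and 2.81% without the probe sets that can match several transcripts. Klrd1 was below 2-fold under median centring, quantile normalization, loess and the pseudocount, and Cd22 under median centring and the pseudocount. The floor at the 75th percentile, 405, left 16 lectin genes measured, and Cd22, Clec4a2, Clec4a3, Clec2h and Klrd1 were no longer past 2-fold. The count of genes at least 2-fold lower, 2, was 1 under that floor, where Clec2h was at -0.48, and 3 with a floor at the 25th percentile or none, where Klre1 was added. Of all measured genes, 0.335% were at least 2-fold lower with the floor at the 75th percentile, 2.97% at the 25th and 1.97% with none. Clec3b and Clec4b1 were added to the higher genes with a floor at the 25th percentile, no floor or the pseudocount. The floor at the 25th percentile also added Clec18a and Clec4e to the higher genes. With every gene counted and values as deposited, the counts were 19 and 5, and the shares of all genes were 12.3% and 6.50%. The median of the lectin genes ran from 0.28 to 0.61 over the settings. Median centring lowered the median of all genes to -0.10 and that of the lectin genes to 0.36, so their difference was 0.46. Lgals3, Clec7a, Clec1b and Clec2d stayed past 2-fold under each scaling, floor and probe set alternative. Of 281 values of the 28 named lectin genes under an alternative, 257 moved by less than the SD of 0.29 among probe sets of one gene over all signals, 24 moved by more and none past 2-fold changed sign. The Clec2 median of -1.87 became 0.42 when the 5 genes below the floor were counted as deposited. Below the floor on both arrays were 14 of 18 killer cell receptor genes, 5 of 7 Clec2 genes and 4 of 7 Siglecs, which limits what can be said of these groups. No paired analysis was possible because each genotype has a single pool.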
